A study of Homo sapiens with 2 samples.

Results

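The crosslink sites described here are those that replicate 2 of a Cas9 irCLIP experiment held and replicate 1 did not. They were chosen by the measured positions of the regions in both libraries. Of the 5995 crosslink regions of replicate 2, 3423 had no replicate 1 region within 100 bases on the same chromosome and strand. A further condition left out 614 of these, because an opposite-strand region of replicate 2 faced them, with its minus-strand start 1 to 110 bases beyond the plus-strand start. The remaining 2809 regions, 46.9% of replicate 2, are called replicate 2 only sites. Under the same conditions 2322 regions of replicate 2 recurred, with a replicate 1 region within 100 bases, and 1606 of the 4204 regions of replicate 1 were replicate 1 only.

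The 2 libraries form 1 group and carry identical labels. The cells are H1-iCas9, human embryonic stem cells of the established H1 line in which doxycycline induces Cas9, given here at 1 µg/ml for 24 hours before crosslinking at 254 nm with 300 mJ/cm2. Anti-FLAG antibody recovered Cas9 with its RNA. Nothing in the labels says whether the libraries came from separate cultures, so differences between them may be technical. No library without Cas9 and no RNA abundance measurement was analysed here, so the cell type could not be checked against the levels of its marker genes.

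Cas9 is a bacterial nuclease that is directed to DNA by a guide RNA, and it can also contact cellular RNA. In irCLIP, RNA is crosslinked by ultraviolet light to the proteins on it, the chosen protein is precipitated, and the cDNA often ends beside the crosslinked base. Transfer RNAs carry amino acids to the ribosome, microRNAs are short processed RNAs that silence messages, and gene starts, where transcription begins, are often rich in G and C.

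The sequences of replicate 2 only sites could be read where RefSeq promoter windows (GRCh38.p14) covered them, from 250 bases before an annotated gene start to 50 bases after it. Windows covered 20 bases on each side of 70 single-base sites. Shown are 10 of those with the highest scores, because 8 of them carry the same letters after the site. Each is written 5′ to 3′ on the strand of the site, with the site as base 11 of 30, and capitals mark the letters GGCGG, also where matches overlap.
SLC27A1, chr19:17470471-17470500, plus strand: cgtggGGCGGagcgggtcgtggGGCGGggc
POMGNT1, chr1:46198504-46198533, plus strand: acgGGCGGtgcttagGGCGGCGGCGGCGGc
LINC01556, chr6:28943686-28943715, minus strand: caccctgtgggtggtagcgtggccgagcgg
SPATA4, chr4:176195619-176195648, plus strand: gcggcgcggtctcgtggGGCGGGGCGGagt
NCL, chr2:231464462-231464491, minus strand: tcgcctcagtctcgagctctcgctggcctt
RAB40B, chr17:82698705-82698734, minus strand: gctgtcagcgctgGGCGGCGGGGCGGggcc
PHF21A, chr11:46121562-46121591, minus strand: tcgcccggctctcgggagcGGCGGgggcgc
ECRG4, chr2:106065468-106065497, minus strand: ttggccacggagaaccgccGGCGGCGGggg
GOLGA7B, chr10:97849971-97850000, minus strand: ccgggtttagctttGGCGGCGGCGGCGGcg
OAZ2, chr15:64703245-64703274, minus strand: tgaggcactcgggGGCGGGGCGGCGGCGGc

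Replicate 2 only sites gathered at gene starts. Within 500 bases of the nearest annotated start lay 218 of the 2667 sites on chromosomes that the start annotation covered, or 8.17% (exact 95% binomial interval 7.16 to 9.28). Recurring regions of the same library had 51 of 2199 there, or 2.32% (1.73 to 3.04), and replicate 1 only sites had 24 of 1510, or 1.59% (1.02 to 2.36). The difference of 5.85 percentage points from recurring regions had a two-sided Fisher's exact p of 2.58e-20, and the 6.58 points from replicate 1 only sites had a p of 1.55e-21. By length, 1.00% of the chromosomes, measured to the last gene end, lies within 500 bases of these starts. The starts used, and so the promoter windows, leave out chromosome 8, with 131 replicate 2 only sites, and the mitochondrial chromosome, with 3. The measure was chosen after the data were seen, the intervals cover the counting of regions only, and the test compares sets of regions, not conditions.

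The excess was narrow and lay on both sides of the start. In the plot of regions around gene starts the 250 bases that begin at the start held 3.22% of replicate 2 only sites, against 0.64% of recurring regions and 0.20% of replicate 1 only sites. From 1000 to 3000 bases on either side no 250 bases held more than 0.562% of them. Of the 218 near-start sites 87 lay upstream and 131 at or downstream of the start. They lay on the strand of the gene in 117 cases and on the opposite strand in 101, which is 53.7% on the gene's strand (46.8 to 60.4). The near-start share was higher among stronger sites. It was 6.15% in the lowest score group of replicate 2, cut at its quartiles, and 17.4% in the highest, while recurring regions in those groups had 0.903% and 3.15%.

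The near-start sites were spread over 214 genes. The start was that of a protein-coding gene for 188 sites and of a long noncoding gene for 30. These genes were picked with their values in view. SLC27A1, a fatty acid transport protein, held the site of highest score, 409, inside its span. It lay 43 bases upstream of an annotated start of the gene, on the gene's strand. POMGNT1, a glycosyltransferase that acts on dystroglycan, held a site of score 303 inside its span, 80 bases upstream of an annotated start, on the opposite strand. NCL, which encodes the nucleolar protein nucleolin, held a site of score 173 at 3 bases past its start, on its own strand. CAPNS1, the small subunit of calpain proteases, held one of score 146 at 46 bases past an annotated start, also on its own strand.

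Among these genes 4 had more than 1 near-start site. TCF3, an E-protein transcription factor, had sites of score 58.9 and 22.4 at 152 and 272 bases past a start, on opposite strands. DNMT3A, a DNA methyltransferase, had sites of score 26.2 and 12.5 at different starts, 193 and 9 bases upstream and both on the gene's strand. ASB13, a substrate adaptor of a ubiquitin ligase, had sites of score 32.5 and 10.7. SAP30L, a subunit of histone deacetylase complexes, had sites of score 15.3 and 12.5. Over all near-start sites the median score was 20.6, with quartiles of 11.8 and 34.4, against 15.3 for the other replicate 2 only sites.

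The bases after the site differed from those before it. Over the 70 sites with sequence, guanine made up 50.9% of the 20 bases after the site and 38.9% of the 20 bases before it, on the strand of the site. Guanine was more frequent after than before in 51 sites and less frequent in 14. Cytosine stood at 30.9% after and 31.6% before. The base directly after the site was thymine in 30 of 70 sites, or 42.9%, whereas thymine made up 14.6% of the bases before the site and 7.74% of bases 2 to 20 after it. At the site itself thymine stood in 4 of 70, or 5.71%. Directly after the site thymine also stood in 4 of 13 recurring regions with sequence, or 30.8%. It stood there in 3 of 5 replicate 1 only sites, or 60%. The guanine shares over 20 bases were totalled for replicate 2 only sites alone. These base patterns are therefore not shown to be particular to replicate 2 only sites.

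The letters GGCGG stood within the 20 bases after the site in 34 of 70 sites, or 48.6%, and within the 20 bases before it in 15, or 21.4%. The reverse complement CCGCC stood after the site in 10 and before it in 3. Of all 20-base stretches on either strand of the 35116 promoter windows 5.64% held GGCGG, and of those in the 86 windows that held these sites 13.7% did. The windows with sites were rich in G and C, with a median of 73.7% (quartiles 68.3 and 78.2) against 58.7% (47.0 and 68.0) for all windows. Recurring regions had 13 sites with sequence, of which 3 held GGCGG after the site and 1 before it, and replicate 1 only sites had 5, of which 0 held it on either side. These letters were chosen after the sequences were seen, and they are a description of this small covered share of the sites. In the printed bases SPATA4, RAB40B and OAZ2 show GGCGG after the site and not before it, NCL and LINC01556 show none, and SLC27A1 and POMGNT1 show it on both sides.

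Transfer RNA genes were a second setting in which replicate 2 only sites stood apart. They held 26 of 2801 sites on placed chromosomes, or 0.928% (0.607 to 1.36), against 1 of 2318 recurring regions, or 0.0431% (0.00109 to 0.240), with a two-sided Fisher's exact p of 2.15e-06. Replicate 1 only sites had 0 of 1605, which allows a share of up to 0.230% by the exact interval (Fisher's exact p = 1.19e-05). The 26 sites fell in 26 genes of 14 isotypes. Alanine tRNA genes were hit 5 times, isoleucine, arginine and threonine genes 3 times each, glutamine and tryptophan genes 2 times each, and 8 isotypes once each. Of the 26 genes 16 lay on chromosome 6, with the others on 6 chromosomes. The 26 were 6.06% of 429 annotated nuclear tRNA genes. How those 429 divide by chromosome and isotype was not counted here, so these counts do not show a preference. Genes of a tRNA family have near-identical copies, and the placing of reads that match several copies is not stated, so the copy that each site belongs to is uncertain.

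The site lay at a similar place in most of these genes. Counted from the upstream edge on the strand of the site, it stood at bases 36 to 44 in 19 of 20 genes no longer than 74 bases, with a median of 39. TRD-GTC2-7, an aspartate tRNA gene, was the exception at base 53. In the 6 longer genes the site stood between bases 52 and 74. The strand of the tRNA genes was not given, so which sites lie on the strand of the tRNA is unknown. Bases 36 to 44 lie near the middle of the shorter genes. Counted on the other strand, such sites would fall at similar bases. TRP-CGG2-1, a proline tRNA gene (chr6:27091742-27091813), held the highest score, 216, at base 38. TRR-TCT1-1, an arginine tRNA gene (chr1:93847573-93847657), held a site of score 175 at base 53, which also lies 406 bases upstream of a start of BCAR3. TRT-TGT3-1, a threonine tRNA gene, and TRA-CGC4-1, an alanine tRNA gene, followed with 78.7 at base 41 and 72.4 at base 39. The lowest was TRA-TGC1-1 with 2.28 at base 38, and the median over the 26 was 18.9. Of the 218 near-start sites only 2 lay in a tRNA gene, and without regions within 1000 bases of a start the tRNA difference was 0.870 percentage points (Fisher's exact p = 1.00e-05).

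**Figure D1:**
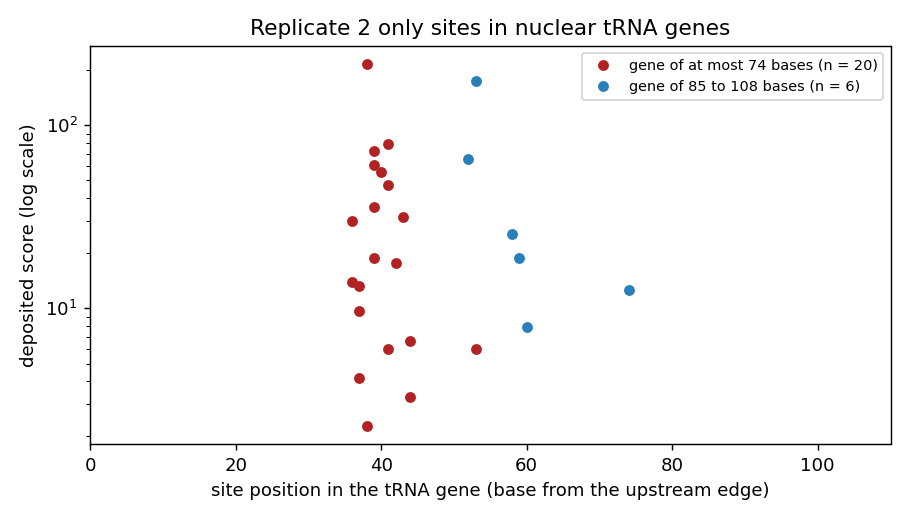
Position of each of the 26 replicate 2 only sites in nuclear tRNA genes (bases from the upstream edge on the strand of the site) against its deposited score on a log scale, for 20 genes no longer than 74 bases (red) and the 6 longer genes (blue). In 19 of the 20 shorter genes the site stands between bases 36 and 44, at scores from 2.28 to 216. The strand of the tRNA genes was not given.

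Of 1913 annotated microRNA genes, which total 157 kb, 6 held a replicate 2 only site, or 0.314%, against 2.97% of all genes. A recurring region lay in 0 of the 1913 and a replicate 1 only site in 0. These small counts were not tested or adjusted for length. Mature sequences of genes with a site are shown because 5 of the 6 sites lay a few bases before the 5′ end of the mature RNA, on its strand. Capitals mark the seed, bases 2 to 8, through which a microRNA pairs with its targets, and no seed was shared. The distance from site to mature end was measured after the sites had been seen.
hsa-miR-15a-5p, chr13:50049167-50049188, minus strand: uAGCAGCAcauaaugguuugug
hsa-miR-4454, chr4:163093607-163093626, minus strand: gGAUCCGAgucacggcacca
hsa-miR-4488, chr11:61508599-61508616, plus strand: aGGGGGCGggcuccggcg
hsa-miR-5100, chr10:42997630-42997651, plus strand: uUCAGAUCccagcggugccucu
hsa-miR-4449, chr4:52712720-52712741, plus strand: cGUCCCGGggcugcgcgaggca

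The site in MIR15A, whose microRNA is known to act on BCL2, stood directly before the first base of miR-15a-5p, with 0 bases between them and a score of 10.7. MIR4454 and MIR4488 had 1 base between site and mature end, with scores of 49.5 and 29.0. MIR5100 and MIR4449 had 4 bases between them, with scores of 17.0 and 0.836. The sixth site, in MIR155, a microRNA gene of immune cells, had a score of 20.8 and lay on the opposite strand, between the mature arms. The MIR4488 site is also a near-start site, 152 bases upstream of LRRC10B, and so is the MIR4449 site, 321 bases past a start of DANCR.

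Other structured and mitochondrial RNAs held few sites by count, over short total lengths. On chromosome 21 RNA45SN3, a copy of the ribosomal RNA precursor, and RNA28SN3 nested in it shared a site of score 22.3, and RNA45SN2 held one of score 18.0, with the same doubt over near-identical copies. SNORD17, a small nucleolar RNA, held 1 of score 7.93, the only hit among 1199 genes of its class. The 51 ribosomal RNA genes total 88.2 kb, and the 1199 genes of the SNORD17 class total 133 kb. COX1 and COX2, mitochondrial subunits of cytochrome c oxidase, held sites of score 0.473 and 2.28. The mitochondrial chromosome held 3 sites in 0.0160 Mb, or 187 per Mb. The other chromosomes held 0.192 to 1.59 sites per Mb, measured to the last gene end. None of the 154 small nuclear RNA genes, the 74 replication-dependent histone genes or the 9 abundant noncoding RNA genes listed, MALAT1 and NEAT1 among them, held a replicate 2 only site. Their total lengths were 19.5, 131 and 42.7 kb, and recurring regions lay in 0 of them too.

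By gene class the sites leaned to protein-coding genes. Of 6 classes 3 (50% of those tested) passed at an adjusted p of 0.05 in the comparison with recurring regions (two-sided Fisher's exact test, Benjamini-Hochberg). Protein-coding spans held 50.8% of the sites (48.9 to 52.6) against 47.6% of recurring regions (45.5 to 49.6; Fisher's exact adjusted p = 0.0493). Long noncoding genes held 10.7% (9.55 to 11.9) against 13.0% (11.7 to 14.5; Fisher's exact adjusted p = 0.0301). The small RNA class, with 27 sites against 2, differed at a Fisher's exact adjusted p of 7.86e-05. It counts the tRNA sites that lie in no gene of the classes before it. Despite its name it also takes in ribosomal and antisense RNA genes, some of them long, such as EMX2OS at 60.8 kb. Between genes lay 36.1% and 38.1% (Fisher's exact adjusted p = 0.207). Without regions within 1000 bases of a start the protein-coding difference was 1.60 points (Fisher's exact adjusted p = 0.436) and the long noncoding one -1.80 points (adjusted p = 0.177). The protein-coding call was also lost without the dense runs (Fisher's exact adjusted p = 0.110), by overlap of at least 1 base (0.0643), at or above the median score (0.0891) and against replicate 1 only sites (0.121). The long noncoding call was lost with facing pairs kept (Fisher's exact adjusted p = 0.118), at or above the median score (0.0891), against replicate 1 only sites (0.269) and with genes on the region's strand alone (0.0935).

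Within genes the sites lay somewhat more often on the strand opposite to the gene. Strand was known for 27305 of 59716 genes, 15843 of them protein-coding. Of the 1228 sites whose genes were all of 1 known strand 570 lay on that strand and 658 on the opposite one, a share of 46.4% (43.6 to 49.3; exact two-sided binomial p = 0.013 against equal shares). Recurring regions had 43.5% on the strand of the gene (40.4 to 46.5; exact binomial p = 2.77e-05) and replicate 1 only sites 50.2% (46.4 to 54.0; exact binomial p = 0.939). The difference of 2.96 points from recurring regions did not pass Fisher's exact test (p = 0.162), nor did the -3.80 points from replicate 1 only sites (p = 0.116).

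No chromosome passed the comparison with recurring regions, 0 of 25 (0% of those tested) at an adjusted p of 0.05 by Fisher's exact test, with 2 at an unadjusted p under 0.05. These were chromosome 22, with 51 sites against 23 recurring regions (Fisher's exact p = 0.0135, adjusted 0.277), and chromosome 19, with 93 against 52 (p = 0.0222, adjusted 0.277). Against replicate 1 only sites chromosome 19 passed, with 3.32% of replicate 2 only sites against 1.68% (Fisher's exact adjusted p = 0.0259).

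The sites were mostly isolated and of low score. The nearest other replicate 2 only site on the same strand lay a median of 651 kb away, and 72 sites, 2.57%, had one within 10 kb. Within their own sets, recurring regions had a median of 818 kb and replicate 1 only sites 1277 kb. There 1.12% and 0.748% had one within 10 kb, so wide spacing was not particular to replicate 2 only sites. The sets differ in size. The nearest replicate 1 region on the same strand lay a median of 465 kb away, and for 2350 sites, 83.7%, it lay over 100 kb away. A further 10 sites had no replicate 1 region on the same chromosome and strand. The limit of 100 bases separates the sets cleanly. The recurring regions farthest from a replicate 1 region were at 18, 11 and 10 bases, with scores of 6.04, 44.7 and 24.7, and the nearest replicate 2 only sites were at 407, 413 and 492 bases, with scores of 1417, 6.04 and 31.7.

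Scores are given as a description, since a region of high score more often recurs. The deposited score had a median of 15.3 in replicate 2 only sites (quartiles 7.89 and 26.2), 42.5 in recurring regions (15.3 and 124) and 10.7 in replicate 1 only sites (5.77 and 19.5). A score of 100 or more was held by 71 replicate 2 only sites, 2.53%, against 682 recurring regions, 29.4%, and 4 replicate 1 only sites, 0.249%. The scores were stepped. The value 12.5218 alone was held by 392 sites, 14.0%, and the 5 commonest values by 1106, 39.4%, against 11.0% of recurring regions.

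**Figure D2:**
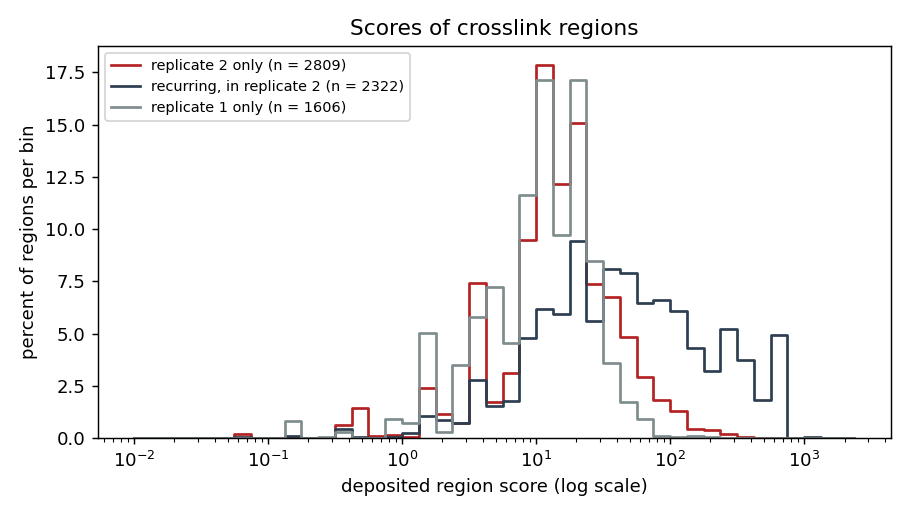
Percent of regions in each score bin (log scale) for 2809 replicate 2 only sites (red), 2322 recurring regions of replicate 2 (dark) and 1606 replicate 1 only sites (grey). The medians are 15.3, 42.5 and 10.7, and 2.53%, 29.4% and 0.249% of the regions reach 100 or more.

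The site of highest score, 1417, spanned 2 bases on chromosome Y (chrY:17154368-17154369, plus strand), in no annotated gene. The value 708.396 occurred within 1 replicate 2 only site and within 93 recurring regions, 4.01%. Whether that value is a ceiling, and whether region scores add over bases, was not stated. The score of 1417 therefore does not show a stronger site than other regions at that value. The chromosome Y site was also the site nearest to the limit, 407 bases from a replicate 1 region. The next, of score 581, lay between genes on chromosome 2 at 32916558. MYOCOS on chromosome 1 (171600951, score 410) and SLC27A1 followed. A site of score 276 lay 1935 bases past an annotated start of POU3F3, a neural POU-domain transcription factor, on the opposite strand. SCG5, a secretory granule protein, shared a site of score 256 with ARHGAP11A-SCG5 and SCG5-AS1. Of the 12 highest scores, those of SLC27A1 and POMGNT1 and the site 423 bases upstream of LCN9 (score 235) were near a start.

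At least 1 replicate 2 only site lay in 1775 genes, 2.97% of 59716, and 1619 of them held exactly 1. Protein-coding genes with a site had a median length of 110 kb, against 24.1 kb for all protein-coding genes and 144 kb for those with a recurring region. Those with a near-start site had a median of 41.3 kb. The genes with the most sites were MAPK10, a stress-activated kinase, and PLCB1, a phospholipase C, with 10 each, and ABCB4, a phospholipid transporter, with 7. Each of the 3 had 0 replicate 1 only sites, and 2, 2 and 1 recurring regions. ZNF385D, a zinc finger gene, RBFOX1, a neuronal splicing regulator, CROT, a peroxisomal acyltransferase gene, MACROD2, an ADP-ribose hydrolase gene, PDE4D, a phosphodiesterase, RANBP2, a nuclear pore protein, GPC6, a glypican, and KIAA1217 had 4 each. SOX1-OT, TENM3, PCDH15 and LOC124901056 had 3 each. RBFOX1 held all 4 on the strand opposite to it, TENM3, a teneurin adhesion protein, all 3, and MACROD2 held 2 on each strand.

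The 3 genes with the most sites were those of runs of closely spaced regions on 1 strand. At least 10 same-strand regions of replicate 2 within 500 kb occurred in 3 places, with 34 replicate 2 only sites among 43 regions. The run over PLCB1 and PLCB4 on the minus strand of chromosome 20 spanned 426 kb, with 14 replicate 2 only sites of score 0.371 to 53.3 among 17 regions. The run over ARHGAP24, MAPK10 and MAPK10-AS1 on the plus strand of chromosome 4 spanned 371 kb, with 11 such sites of score 12.5 to 37.4 among 14 regions. The run over CROT and ABCB4 on the plus strand of chromosome 7 spanned 210 kb, with 9 of score 2.28 to 26.2 among 12. In each run the highest score, 708, 708 and 143, belonged to a recurring region, with 16, 12 and 11 regions upstream of it along the strand and 0, 1 and 0 downstream. The strand of the gene was known for 3 of these genes. MAPK10 lies on the minus strand, so all 10 of its sites were opposite to it, whereas the 4 sites in CROT and the 1 in ARHGAP24 were on the gene's strand.

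**Figure D3:**
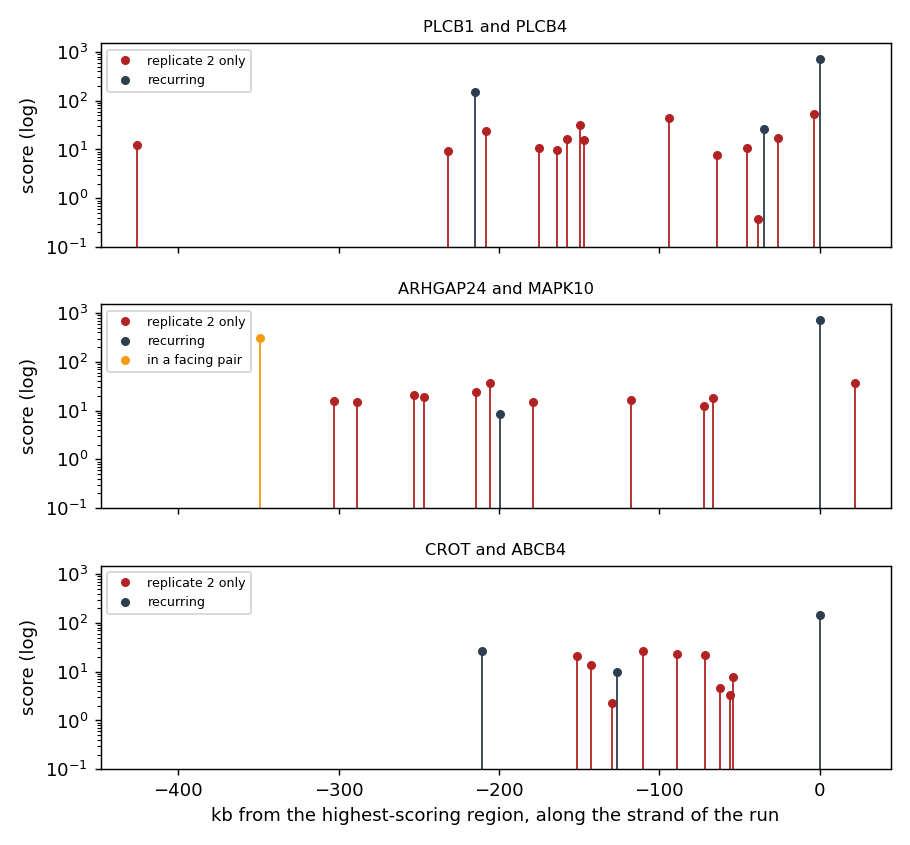
Score (log scale) of each region in the 3 dense single-strand runs, by distance in kb from the region of highest score along the strand of the run, with replicate 2 only sites in red, recurring regions dark and 1 region of a facing pair in orange. The highest region is a recurring one in every run and lies at or next to the downstream end.

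Lists of genes are given as counts beside the 2.97% of all genes and the 6.37% of protein-coding genes that held a site. Of 15 pluripotency genes, which mark this cell type, L1TD1, an RNA-binding protein of stem cells, held 1 site, of score 14.0 on the opposite strand. Of 102 protein-coding genes with RPL or RPS symbols 4 held a site, 3.92%, among them RPL39L (score 5.83) and RPSA2 (1.41), the others being the kinases RPS6KA2 and RPS6KA3. Of 70 translation factor symbols 4 held a site, 5.71%, namely EIF6 (29.0), EIF3A (12.5), EIF3M (12.5) and the kinase EIF2AK1 (20.8). Of 40 long neuronal genes, with a median length of 1250 kb, 27 held a site, 67.5%, while 32 held a recurring region and 22 a replicate 1 only site. Together these 40 genes span 54791 kb and held 48 sites. The chromosomes that the start annotation covered held 2667 sites in 2942 Mb. The share of genes with a site was not adjusted for gene length. MACROD2, GPC6, TENM3 and PCDH15, a protocadherin, led this list.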

How the data were processed

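Each library came as a deposited list of crosslink regions with a score per region. Per the submitters' processing notes, the tools were STAR 2.5.2, Bowtie2 2.3.5, UMI-tools, SAMtools and deepTools on hg38, without stated roles. The caller, the scale of the authors' deposited score and the read depth were not stated. Distances run between nearest bases, with 1 for adjacent bases, and positions are 1-based.

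Genes and biotypes came from RefSeq spans on GRCh38.p14, whose chromosomes are those of hg38, by overlap on either strand. Strand and starts came from 35116 promoter windows of 27305 genes. A gene can have several annotated starts, and some lie inside its span. A region in genes of several classes counts once, protein-coding before long noncoding, then pseudogenes, then small RNA. Fisher's exact tests (scipy 1.17.1) compare sets of regions, which are not replicates, and intervals are exact 95% binomial (Clopper-Pearson). Methods were tested on simulated data.

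Named genes are the 15 with the most sites, the 12 highest sites, small and mitochondrial RNA genes, run genes, up to 4 per list and the sites nearest the limit. The sites, genes and lists were chosen with earlier results of these data known. Of the 12 highest sites 1 is not reported here. Near-start genes and the sequences shown were chosen after their values were seen. Comparisons by exon, by repeat and by base over all sites were planned and not run, since no genome was used here.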

Additional observations from a re-analysis of the deposited data

How the results depend on the processing

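The near-start difference kept its direction and its call under the 12 alternatives tried; this comparison and its alternatives were chosen after seeing the data, as was leaving out regions within 1000 bases of a start. It ranged from 2.21 percentage points in the promoter window alone to 9.87 points at or above the median score, with 5.39 points without chromosomes 19 and 22. The tRNA difference also kept its call, from 0.722 points with facing pairs kept to 1.37 points at or above the median score; it was not run on the strand of the gene, which is not given for tRNA genes. At or above the median score of replicate 2 the number of sites was 836, and 1 class was called. Against replicate 1 only sites 1 class and 1 chromosome (chromosome 19) were called, and the gene strand difference reversed to -3.80 points, uncalled on both sides. Without regions within 1000 bases of a start 1 class was called. The cause of these changes was not tested. A limit of 1000 bases gave 2798 sites, overlap of at least 1 base 2903, and facing pairs kept 3423. Looser runs, at least 5 regions within 100 kb, numbered 4.

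No paired analysis was possible because the libraries form 1 group, and leaving out either would leave no sites, since both define them. Alternatives by exon, repeat and base were not run. The read depth is unknown.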
